A study of Mus musculus with 9 samples.

Results

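The 3 Control libraries hold RNA of untreated 4T1 cells and were taken as 3 of the 9 libraries of the series by their labels alone. No measured value entered that choice. The series set cells in plain medium beside cells given Cu-TCPP(Fe)-PEG or Au/Cu-TCPP(Fe)-PEG, nanoparticle preparations, for 24 h. Only the untreated cells are described here, and no treated library was compared with them. The control cells grew in high-glucose DMEM with fetal bovine serum and antibiotics, and received no particle. 4T1 is an established mouse mammary carcinoma line, so each library is RNA of a bulk culture of 1 line. The labels give the 3 replicates a number each and no culture, passage or day, so the spread between them may be technical. Libraries were made from polyadenylated RNA with a QIAGEN kit meant for single cells (QIAseq FX), which amplifies cDNA before sequencing.

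4T1 cells are grown from a mammary tumour that spreads to lung, liver and bone in mice, and are used as a model of aggressive breast cancer. Mammary epithelium has an inner luminal layer, marked by keratins 8, 18 and 19, and an outer basal layer, marked by keratins 5 and 14. Carcinoma cells can keep epithelial adhesion genes while they also use mesenchymal ones, and many secrete cytokines that act on myeloid cells rather than on themselves. The sections below give the repertoire in that order: abundant transcripts, lineage, growth control, receptors, secreted factors, immune surface genes, transcription factors, silent genes and replicate spread.

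Libraries held 16108691, 16638173 and 16429404 counted reads. Levels are given as FPKM, reads scaled to gene length and library size, as deposited. A gene is called expressed where its FPKM was at least 1 in each of the 3 libraries. By that rule 11249 of 54532 genes were expressed (20.6%), and 9974 of 22046 protein-coding genes (45.2%). No read was counted in any library for 30515 genes (56% of all) and for 6994 protein-coding genes (31.7%). Those shares are the background for the counts of each gene list below, and the lists were chosen by hand, so their shares describe them and test nothing. The median FPKM of expressed protein-coding genes was 8.66. Levels of 100 FPKM to under 1000 were reached by 300 protein-coding genes, and 1000 or more by 19. A further 4922 protein-coding genes had reads but a mean under 1 FPKM.

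Among genes that are neither mitochondrial nor ribosomal, the transcript of highest level was Lgals1, which encodes galectin-1, a secreted sugar-binding protein. Its FPKM was 4680.1, 4926 and 5113 in the 3 libraries (4906 ± 217, SD, n = 3). Eef1a1, a translation elongation factor, had 3878, 3953 and 4025 FPKM. Fth1, the heavy chain of the iron store ferritin, had 2888, 2972 and 3153 FPKM. The order Lgals1, Eef1a1, Fth1 was the same in every library, and their ranges did not overlap. Lower means, in falling order, were those of the elongation factor Eef2 (1827 FPKM) and of S100a6 (1765 FPKM), a calcium-binding S100 protein. The chaperone gene Hsp90ab1 (1296 FPKM) and another S100 gene, S100a11 (1204 FPKM), came after these.

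Glycolysis was represented among the 30 highest genes by Pgk1 (mean 1063 FPKM), Pkm (648 FPKM), Aldoa (570.3 FPKM) and Ldha (487 FPKM). Secreted products among those 30 were Spp1, which encodes osteopontin, at 950.4, 888 and 948 FPKM, the cytokine-like enzyme Mif at 767 FPKM, and the secreted protease-inhibitor-like protein Wfdc2 at 693 FPKM. Structural genes were Vim (667 FPKM), Actb (609 FPKM), Krt18 (590.5 FPKM), Tubb5 (567 FPKM) and Krt8 (431 FPKM). The light ferritin chain, Ftl1, was at 418 FPKM. Thus a cytoskeleton of vimentin and of simple keratins was among the 30 highest transcripts of the same cultures. The 100 most counted genes took 18.1% ± 0.247 (SD, n = 3) of all reads. Of the reads, 6.33% ± 0.177 fell on ribosomal protein genes and 1.27% ± 0.0251 on genes of the mitochondrial genome (SD, n = 3).

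Ribosomal proteins are built into the ribosome in like amounts, whereas the counted levels of their genes were unequal. Of 89 genes 83 were expressed, from 3604 FPKM for Rplp1 down to 2.95 FPKM for Rps10 and 1.22 FPKM for Rpl21, and 4 had no read. The 89 were matched by symbol and also hold relatives of the core genes, such as Rps3a2, Rps3a3, Rpl6l and Rpl7l1. Every core Rpl, Rps and Rplp gene was among the 83. Of 37 mitochondrial genes 23 were expressed and 6 had no read. Every protein-coding gene and the ribosomal RNA genes mt-Rnr1 and mt-Rnr2 were expressed, so those not expressed were transfer RNA genes. Genes that encode proteins included mt-Co1 at 3556 FPKM, mt-Co3 at 13.4 FPKM and mt-Atp8 at 1.76 FPKM. Such genes have near-identical copies elsewhere in the genome, between which counting can split or drop reads. Levels of ribosomal protein genes, mitochondrial genes, Eef1a1, Gapdh and the pair Hmga1 and Hmga1b are therefore uncertain. Processed pseudogenes, which are such copies, took 1.89% ± 0.0392 of reads (SD, n = 3).

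The epithelial label was checked against 7 defining markers, and 6 of them were expressed. Krt18 and Krt8 encode partner keratins of simple epithelium. Krt18 had 566, 591 and 614 FPKM, and Krt8 had 410.5, 418 and 464 FPKM. Krt8 and Krt18 did not overlap in any library, with Krt18 the higher. Krt7 had a mean of 110.1 FPKM and Krt19 of 80.5 FPKM. The adhesion genes Cdh1 (E-cadherin; 69, 67.2 and 68.9 FPKM) and Epcam (28.5, 30.2 and 32.2 FPKM) and the epithelial splicing regulator Esrp1 (12.2, 12.1 and 12.1 FPKM) were expressed. The marker that was not expressed was the tight-junction gene Cldn7, with 2, 4 and 1 reads and a mean of 0.0641 FPKM.

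Of 30 epithelial junction and polarity genes, 21 were expressed and 3 had no read. Cdh1 and the protease inhibitor Spint2 (56.6 FPKM) led, and the junction genes Epcam, F11r, Jup and Tjp1 had means of 28.2 to 30.3 FPKM. Claudins, which seal tight junctions, were uneven: Cldn4 had 10.0, 9.47 and 10.7 FPKM, Cldn3 a mean of 0.0851 FPKM, and Cldn1 no read, which allows up to 0.0111 FPKM. That limit, as for each gene at 0 reads below, is the FPKM that 3 reads over the group would give, and covers counting error only. Ovol2, an epithelial repressor of mesenchymal genes, had no read either, with a limit of 0.0255 FPKM. Epithelial regulators that were expressed included Klf5 (22.4 FPKM), Elf3 (14.3 FPKM) and Grhl2 (2.45 FPKM).

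The basal and stratified keratins stood at the opposite end. Of 12 such genes, only Krt80 was expressed, at 5.07, 4.76 and 4.99 FPKM. Krt5 had no read, with a limit of 0.0245 FPKM. Krt14 had 0, 1 and 1 reads, and Krt17 had 1, 0 and 2 reads. Trp63, the transcription factor of basal cells, had 3 reads in all. High and silent keratin genes lie near each other on chromosome 15. Krt5 (101707070 to 101712898, mm10) is inside a run of 23 neighbouring protein-coding genes, Krt81 to Krt78, that had no read (101459061 to 101954287). Krt8 (101996698 to 102004482) and Krt18 (102028180 to 102032027) lie beyond the end of that run.

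The 100 bases before these 3 genes are printed because the genes share a cluster but not a level, with CG dinucleotides, the substrate of DNA methylation, in capitals. They are RefSeq promoter bases of GRCm38.p6, the assembly that mm10 names, on the gene's strand and outside the deposited gene.
Krt18, chr15:102028080-102028179, plus strand: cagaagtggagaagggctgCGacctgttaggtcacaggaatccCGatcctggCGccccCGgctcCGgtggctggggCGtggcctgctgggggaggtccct
Krt8, chr15:102004483-102004582, minus strand: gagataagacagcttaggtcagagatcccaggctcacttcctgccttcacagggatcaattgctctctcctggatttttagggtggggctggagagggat
Krt5, chr15:101712906-101713005, minus strand: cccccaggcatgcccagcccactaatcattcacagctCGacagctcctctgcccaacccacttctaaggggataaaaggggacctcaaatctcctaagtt
Krt18 held 6 CG in that stretch, Krt8 none and Krt5 1. The expressed Krt8 was therefore as poor in CG as the silent Krt5 in these bases.

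Mesenchymal genes were expressed beside the epithelial ones. Of 31 in the list, 16 were expressed and 4 had no read. Vim, the mesenchymal intermediate filament, had 646, 654 and 701 FPKM. Fn1 (fibronectin) had a mean of 142 FPKM, the secreted matrix protein Cyr61 127 FPKM and Thbs1 (thrombospondin-1) 96.6 FPKM. Sparc and S100a4 were at 28.3 and 27.0 FPKM. Cdh2 (N-cadherin) had no read, with a limit of 0.00667 FPKM, so E-cadherin without counted N-cadherin was found with high vimentin.

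The factors that drive epithelial-mesenchymal transition were also split. Twist1 had 25.0, 24.9 and 26.2 FPKM, and Snai1 had 10.6, 9.73 and 11.1 FPKM. Zeb2 was low, at 1.70, 1.86 and 1.73 FPKM. Zeb1 had 2, 3 and 3 reads, or a mean of 0.014 FPKM, and Snai2 had no read. Foxc2, another factor of that class, had a mean of 7.32 FPKM. Of the 10 factors in the list 4 were expressed, against a background of 45.2% of protein-coding genes. The plot of lineage genes shows the 3 libraries of each gene close together against differences between genes of several orders of magnitude.

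**Figure D1:**
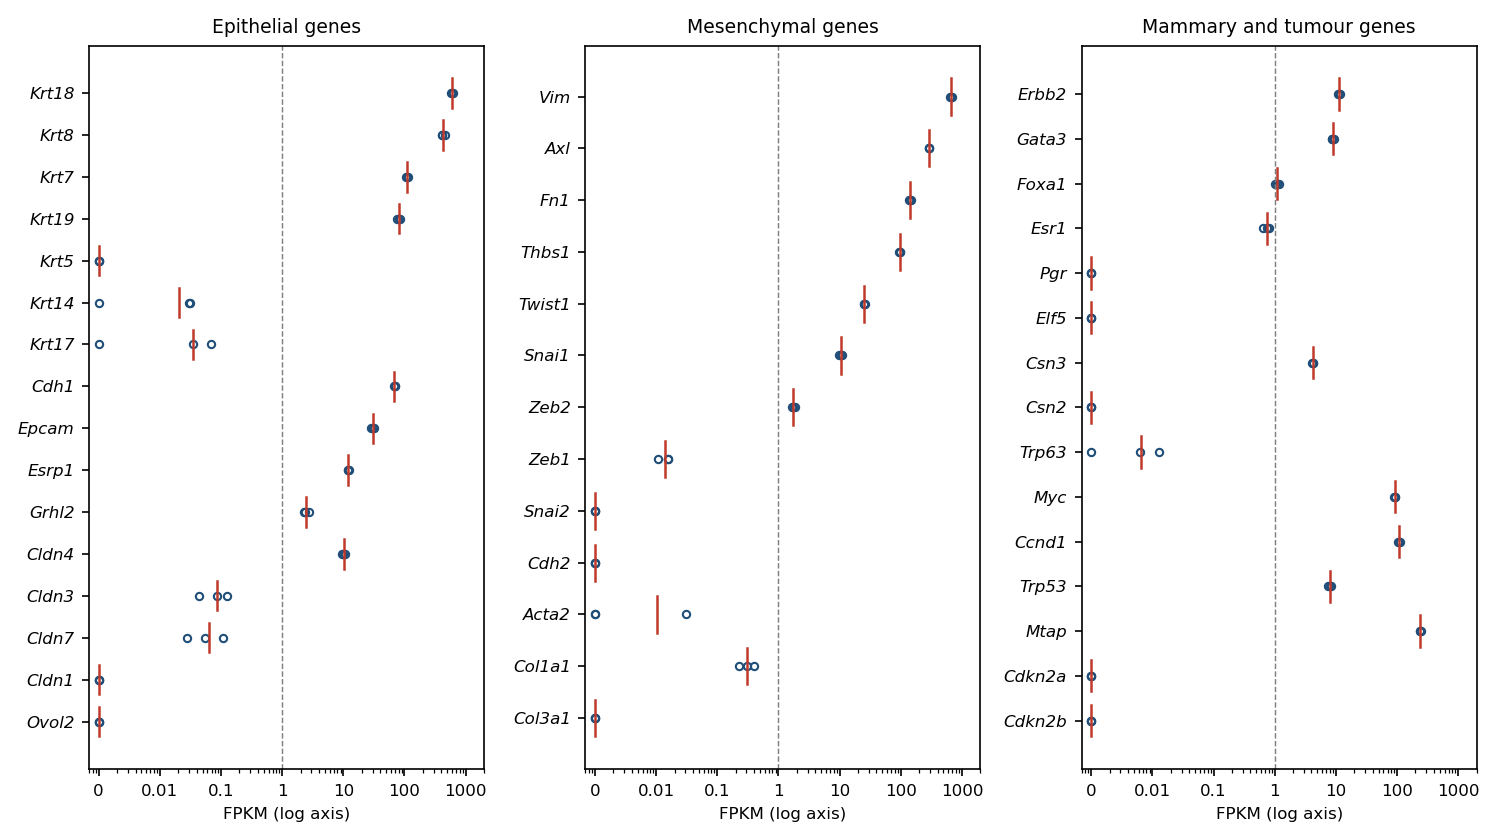
FPKM (log axis, with 0 drawn at the left edge) of epithelial, mesenchymal, and mammary and tumour genes in the 3 Control libraries. Circles are libraries, red bars are means and the dashed line marks 1 FPKM. Krt18 and Vim lie at 590.5 and 667 FPKM, while Krt5, Cdh2, Pgr, Cdkn2a and Cdkn2b lie at 0.

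The series title calls these cells triple negative, a class of breast cancer without oestrogen receptor, progesterone receptor or amplified ERBB2. Esr1, the oestrogen receptor gene, had 0.819, 0.635 and 0.761 FPKM, from 206, 164 and 192 reads. Pgr, the progesterone receptor gene, had no read in any library, with a limit of 0.00629 FPKM. Erbb2 had 11.2, 10.8 and 11.9 FPKM. Thus Esr1 was counted in all 3 libraries but under 1 FPKM, Pgr was not detected and Erbb2 was expressed. RNA levels do not give receptor protein.

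Mammary luminal genes were partly expressed, 9 of 24, and 10 had no read. Lcn2, which encodes the iron-carrier binding protein lipocalin-2, led with 107, 104 and 114 FPKM. Gata3, the luminal transcription factor, had 8.56, 9.39 and 8.53 FPKM, and Foxa1, its partner, lay at the threshold with 1.18, 1.00 and 1.11 FPKM. Elf5, the alveolar factor, and the milk protein genes Wap and Csn2 had no read. Another milk protein gene, Csn3, had a mean of 4.18 FPKM. Of 18 mammary basal and myoepithelial genes 6 were expressed and 3 had no read, with the integrin genes Itga6 at 31.3 FPKM and Itgb4 at 17.7 FPKM among those expressed. Of 20 stem and progenitor markers 12 were expressed and 5 had no read. Among them Cd44, Procr and Itgb1 had means of 48.5, 31.2 and 133 FPKM.

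All 20 proliferation genes in the list were expressed. Top2a, a topoisomerase of dividing cells, led with 173, 175 and 164 FPKM. Pcna, the replication clamp, had 97.5, 94.2 and 98.5 FPKM, and Mki67, which encodes Ki-67, had 61.9, 67.0 and 58.3 FPKM. The lowest was Tyms at 5.94 FPKM. Clustered histone genes, whose RNA mostly lacks a poly(A) tail, were expressed in 10 of 70 cases with a highest mean of 6.34 FPKM for Hist1h1c, in libraries made from polyadenylated RNA.

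Among 26 oncogenes and tumour suppressors, 22 were expressed and 3 had no read. Ccnd1 (cyclin D1) had 110.5, 103 and 108 FPKM, Myc had 94.0, 90.7 and 92.9 FPKM, and Cdk4, the partner kinase of cyclin D1, had 84.7, 93.4 and 90.7 FPKM. Ranges of Myc and Cdk4 overlapped. Trp53, which encodes the p53 tumour suppressor, had 562, 633 and 591 reads, or 7.55, 8.28 and 7.91 FPKM. Rb1, the cyclin D target, had a mean of 5.52 FPKM.

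Cdkn2a, which encodes the CDK4 inhibitor p16 and the p53 activator Arf, had no read in any library, with a limit of 0.0459 FPKM. Its neighbour Cdkn2b, the gene of the related inhibitor p15, had none either, with a limit of 0.0387 FPKM. Next to both on chromosome 4, Mtap, a methionine salvage enzyme, had 14377, 14541 and 14544 reads and a mean of 242 FPKM. On the other side Dmrta1 had no read. Beyond it, Zfp352 had 6, 10 and 7 reads, and the predicted gene Gm12666 had 30, 27 and 47 reads (mean 2.44 FPKM). Elavl2, Izumo3 and Tusc1 in the same stretch had no read. The first protein-coding gene there with over 100 reads in each library was Caap1 (176, 189 and 138 reads, mean 2.51 FPKM). Mtap lies at 89137122 to 89181081, Cdkn2a at 89274471 to 89294653, Cdkn2b at 89306299 to 89311039 and Dmrta1 at 89679436 to 89694772 (mm10). The level thus went from 242 FPKM to 0 reads between neighbouring genes. RNA counts cannot tell a gene that is absent from one that is not transcribed.

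The 100 bases before Cdkn2a and Cdkn2b in the reference are printed because these are silent genes with CG-rich upstream sequence, unlike Krt5 above. They are reference bases, not read from 4T1 cells, and CG is in capitals. Only the most upstream start of each gene was used, so any other start of Cdkn2a, which encodes p16 and Arf, is not covered.
Cdkn2a, chr4:89294654-89294753, minus strand: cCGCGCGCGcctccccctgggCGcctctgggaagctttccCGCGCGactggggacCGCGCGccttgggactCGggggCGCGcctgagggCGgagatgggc
Cdkn2b, chr4:89311040-89311139, minus strand: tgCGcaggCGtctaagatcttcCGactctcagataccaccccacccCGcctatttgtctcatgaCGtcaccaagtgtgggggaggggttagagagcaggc
Cdkn2a held 15 CG and Cdkn2b 5. Over the whole window of 300 bases (250 before the RefSeq start and 50 after), Cdkn2a had 15 CG per 100 bases, against a median of 1 over the 4950 promoters of genes with no read.

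Receptor tyrosine kinases read growth factors at the cell surface, and 20 of 58 were expressed, with 16 at 0 reads. Axl, the receptor of Gas6, led with 289.6, 287 and 293.5 FPKM, the 104th highest level among protein-coding genes. Epha2, an ephrin receptor, had 99.5, 94.6 and 102 FPKM. The gap between these genes and the next was wide, since Ddr2, a collagen receptor, had 34.2, 33.1 and 29.7 FPKM and overlapped with Ryk, a Wnt co-receptor, at 30.4, 30.6 and 32.6 FPKM. Met, the receptor of hepatocyte growth factor, and Fgfr2 had means of 21.6 and 21.3 FPKM and overlapping ranges.

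Within the ERBB family, Erbb2 (mean 11.3 FPKM) and Erbb3 (10.6 FPKM) were expressed and Egfr was not, with 26, 33 and 20 reads or 0.125 FPKM. Kit, Kdr and Pdgfrb, receptors of blood, endothelial and mural cells, had no read, with limits of 0.00604, 0.00596 and 0.00982 FPKM. Igf1r and Insr, which read insulin-like growth factors and insulin, had 5.31 and 7.63 FPKM.
The 100 bases before Axl are shown as those of the receptor kinase of highest level, with CG in capitals.
Axl, chr7:25788734-25788833, minus strand: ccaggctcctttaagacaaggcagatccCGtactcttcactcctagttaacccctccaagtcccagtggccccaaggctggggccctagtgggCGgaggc
They held 2 CG, fewer than the 6 before Krt18, and the 300-base window had 2 CG per 100 bases.

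Integrins bind the matrix as pairs of alpha and beta subunits, and 12 of 26 subunit genes were expressed. Itga3, a laminin receptor subunit, had 321, 320.1 and 336 FPKM and its partner Itgb1 138, 131 and 129 FPKM. Itgb5 had a mean of 68.2 FPKM. Itgb2 and Itgb7, best known from leukocytes, had 31.5 and 30.5 FPKM, with overlapping ranges. Laminin genes were also high: Lama5 had 180.1, 181.5 and 188.8 FPKM, and 7 of 11 laminin genes were expressed. Of 44 collagen genes 9 were expressed, led by the basement-membrane collagens Col4a2 (61.4 FPKM), Col18a1 (61.2 FPKM) and Col4a1 (61 FPKM). The interstitial collagen gene Col3a1 had no read.

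Of 56 cytokine and interferon receptor genes 21 were expressed, led by Ifnar1 and Ifnar2, the type I interferon receptor chains, at 17.0 and 16.9 FPKM. Il6st, the shared gp130 chain, had 12.9, 13.0 and 12.7 FPKM. Of 23 chemokine receptor genes 3 were expressed: Ackr3, a scavenging receptor of CXCL12, had 16.4, 16.8 and 17.9 FPKM, and Ccrl2 and Ccr10 lay near the threshold at 1.19 and 1.15 FPKM. Cxcr4, the signalling receptor of CXCL12, had no read, with a limit of 0.0297 FPKM. Among TNF receptors 12 of 27 were expressed, with Tnfrsf12a, the TWEAK receptor, first at 119.6, 116 and 124 FPKM. Tnfrsf1a (29.4 FPKM) and Ltbr (24.6 FPKM) followed.

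TGF-beta family receptors were expressed in 10 of 14 cases, led by Tgfbr2 at 20.1, 19.9 and 20.7 FPKM. Of 22 Notch, Wnt and Hedgehog receptor genes 12 were expressed, with the Wnt co-receptor Lrp5 at 19.1 FPKM and Smo at 17.2 FPKM. Tlr2 and Tlr4, which detect bacterial lipids, had 13.3 and 9.09 FPKM. The thrombin receptor F2r was the leading G protein-coupled receptor of its list at 37.1, 40.6 and 38.3 FPKM, in a list where 6 of 44 were expressed. Nuclear receptors were expressed in 20 of 49 cases, with Esrra (21.4 FPKM), Nr1h2 (21.2 FPKM) and the glucocorticoid receptor gene Nr3c1 (14.4 FPKM). None of these came near the level of Axl.

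Within the chemokine, interleukin and colony-stimulating factor lists, the highest genes were ones that recruit or expand neutrophils. Other secreted products named above, Lgals1, Spp1 and Mif, stood higher. Cxcl5 and Cxcl1 encode chemokines that act on CXCR2 of neutrophils. Cxcl5 had 331, 321 and 301 FPKM, and Cxcl1 had 154, 149 and 158 FPKM. Csf3, which encodes G-CSF, the growth factor of neutrophils, had 255, 228 and 262 FPKM. These 3 genes lay above every other chemokine, interleukin or colony-stimulating factor in the lists, since the next were Cx3cl1 (35.6 FPKM) and Csf1 (34.5 FPKM). Csf3 was lowest in replicate 2 (248 ± 18.1 FPKM, SD, n = 3).

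Of 36 chemokine genes 10 were expressed and 12 had no read. Cxcl16 had a mean of 22.9 FPKM and Ccl20 of 13.8 FPKM. Ccl2, which attracts monocytes, had 9.35, 10.7 and 7.66 FPKM and overlapped with Ccl5 at 8.66, 9.04 and 9.58 FPKM. Of 46 interleukin and colony-stimulating factor genes 17 were expressed, among them Il1a (28.8, 27.6 and 26.5 FPKM), Il24 (23.4, 20.6 and 21.7 FPKM) and Lif (20.5, 18.6 and 20.7 FPKM). Ranges of Il24 and Lif overlapped. Il1b was near the threshold, at 1.03, 1.78 and 1.19 FPKM, and Csf2, the gene of GM-CSF, had 1.83, 2.38 and 2.77 FPKM.

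Several well-known inflammatory genes were scarce. Il6 had 3, 3 and 1 reads, and Tnf had 1, 2 and 0 reads. None of the 10 interferon genes in the list was expressed and 8 had no read. Of 18 TNF superfamily ligand genes 3 were expressed, with Tnfsf9 highest at 4.53 FPKM.

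Growth factor genes were expressed in 17 of 42 cases. Grn (progranulin) led with 80.2, 81.2 and 88.3 FPKM, followed by Vegfb with a mean of 49.5 FPKM. Hbegf, an EGF receptor ligand, had 29.1, 29.1 and 30.9 FPKM and Vegfa 19.3, 20.2 and 19.8 FPKM. Of the Wnt, Notch and Hedgehog ligands 5 of 35 were expressed, led by Wnt7b at 20.9 FPKM. Tgfb1 had 14.8, 14.4 and 16.5 FPKM. Among matrix proteases and their inhibitors, 10 of 20 were expressed, with the inhibitors Timp2 (138 FPKM) and Timp1 (57.3 FPKM) above the proteases Mmp14 (20.6 FPKM) and Mmp9 (8.61 FPKM).

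**Figure D2:**
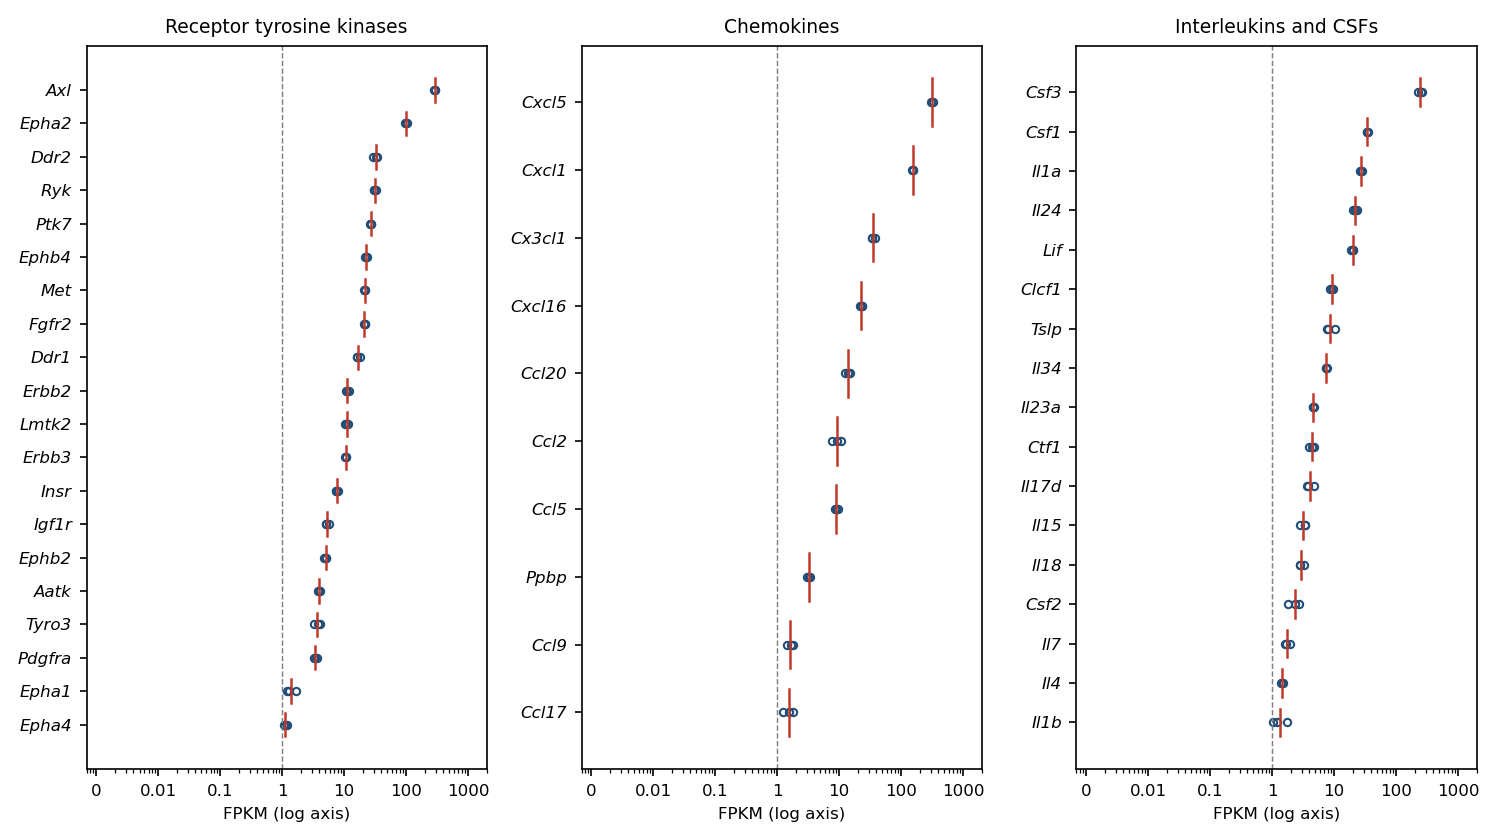
FPKM (log axis) of the expressed receptor tyrosine kinase, chemokine, and interleukin and colony-stimulating factor (CSF) genes in the 3 Control libraries, ordered by mean. Circles are libraries, red bars are means and the dashed line marks 1 FPKM. Axl (290.1 FPKM), Cxcl5 (318 FPKM) and Csf3 (248 FPKM) head the panels.

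Ligands and receptors were then read as 62 pairs, a list written after levels of these genes had been seen, and so given as a description. Ligand and receptor were both expressed in 13 pairs, the ligand alone in 26, the receptor alone in 18 and neither in 5. Csf3 stood at 248 FPKM while Csf3r, its receptor, had no read (limit 0.0149 FPKM). Cxcr2, the receptor of Cxcl5 and Cxcl1, had 2, 1 and 1 reads. Hbegf, Areg (13.7 FPKM) and Tgfa (7.12 FPKM) were expressed while their receptor Egfr was at 0.125 FPKM, and Vegfa was expressed while Kdr had no read.

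The reverse was seen for Axl, whose ligand gene Gas6 had no read (limit 0.0211 FPKM), and for Met, whose ligand gene Hgf had 1 read in all. Tnfrsf12a at 120.0 FPKM faced its ligand gene Tnfsf12 at 0.0951 FPKM. Pairs with both sides expressed included Tgfb1 and Tgfbr2 (15.2 and 20.2 FPKM), Tslp and Crlf2 (8.74 and 11 FPKM), Pdgfa and Pdgfra (17.9 and 3.43 FPKM), Il1a and Il1r1 (27.6 and 1.75 FPKM) and Wnt7b and Fzd7 (20.9 and 7.77 FPKM). Each pair names 1 receptor gene, so other chains of a receptor were not counted with it. For Tslp, Crlf2 alone was read, and Il7r had a mean of 0 FPKM in its own pair with Il7. Serum in the medium can also supply ligands, which RNA does not show.

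**Figure D3:**
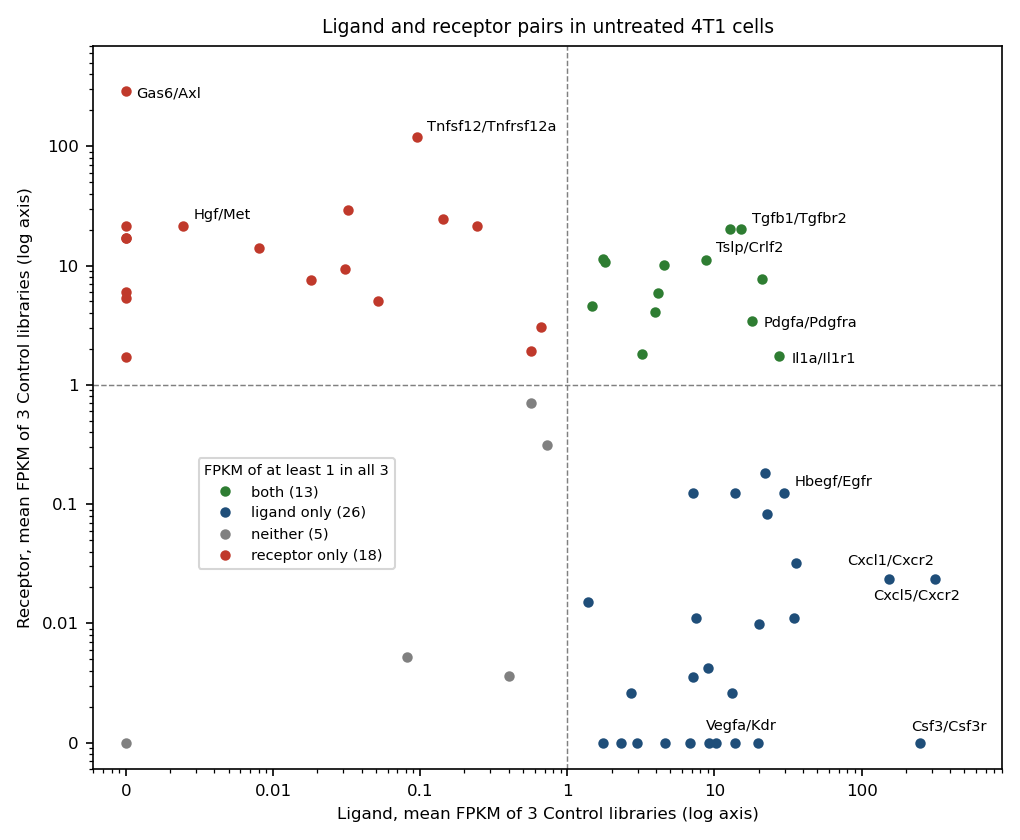
Mean FPKM over the 3 Control libraries of the ligand (horizontal, log axis) and the receptor (vertical, log axis) of 62 pairs, with 0 drawn at the edge and dashed lines at 1 FPKM. Colours give which side reached 1 FPKM in all 3 libraries. Csf3 with Csf3r lies at the lower right, 248 FPKM against 0, and Gas6 with Axl at the upper left, 0 against 290.1 FPKM.

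Genes of antigen presentation by MHC class I, which shows peptides to CD8 T cells, were expressed in all 15 measured cases. B2m, the shared light chain, had 488, 480.4 and 493 FPKM, and H2-D1, a heavy chain gene, had 165, 173 and 181 FPKM. H2-K1 had 30.2, 32 and 43.1 FPKM, highest in replicate 3. Heavy chain genes resemble each other closely, so their counts are uncertain. The peptide transporter genes Tap2 and Tap1 had 10.4 and 6.39 FPKM. Of 10 MHC class II genes 2 were expressed, Cd74 (12, 10.5 and 13.9 FPKM) and H2-DMa (2.77 FPKM), while H2-Aa and H2-Ab1, which encode the chains themselves, had no read and their activator Ciita had 3, 5 and 7 reads.

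Surface and enzyme genes that act on immune cells were expressed in 12 of 25 cases. Cd47, the signal against phagocytosis, had 79.1, 76.9 and 75.4 FPKM. The enzymes Nos2 (inducible nitric oxide synthase) and Ptgs2 (cyclooxygenase-2) had 35.6, 39.2 and 39.2 FPKM and 40.3, 35.8 and 35.8 FPKM, with overlapping ranges. Cd274, the gene of PD-L1, was under the threshold at 0.855, 0.994 and 0.822 FPKM.

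Markers of other cell types were looked for in 6 lists. Of 77 marker entries 4 were expressed and 36 had no read. The 4 were Cd68 (19.6, 21.1 and 22.8 FPKM), Cd14 (7.84, 7.27 and 7.71 FPKM), Pdgfra (3.70, 3.24 and 3.35 FPKM) and Eng (9.92, 11.1 and 10.5 FPKM). Defining genes of the same types were at 0, among them Adgre1, C1qa and Spi1 of macrophages and Dcn and Lum of fibroblasts. Summed over a list, macrophage markers gave 28.3 to 31.4 FPKM in the libraries, endothelial ones 10.7 to 12, fibroblast ones 3.72 to 4.19 and lymphocyte ones 1.03 to 1.23 FPKM. Adipocyte and muscle markers summed to 0.39 to 0.794 FPKM, and neural, melanocyte, liver and blood markers to 0.0568 to 0.402 FPKM. Whether a few such cells were present was not tested.

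Genes that the table assigns to a transcription factor family numbered 1469, of which 692 were expressed (47.1%) and 388 had no read (26.4%). The highest were Hmga1b, an architectural chromatin protein gene, at a mean of 419.8 FPKM, Ybx1, a cold-shock domain factor, at 361, 385 and 374 FPKM, and Hmga1 at a mean of 299 FPKM. Atf4, the factor of the integrated stress response, had 144, 138 and 141 FPKM. Myc, Junb (84.0, 86.1 and 94.2 FPKM) and Cebpb (78.0, 84.8 and 92.8 FPKM) were lower. All 5 NF-kB genes were expressed, led by Nfkb2 (61.1, 60.9 and 62.3 FPKM), and Fosl1, an AP-1 subunit, had 51.4, 46.4 and 51.3 FPKM.

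Families differed in how many members were in use. All 10 E2F, 9 MBD and 7 THAP genes were expressed, as were 4 of 4 Tead genes, the partners of YAP, with Tead2 at 18.3 FPKM and Tead1 at 14.3 FPKM. Among Ets factors 17 of 26 were expressed, including Elk3 (30.5 FPKM), Etv5 (24 FPKM) and Etv4 (22.2 FPKM). Fox (fork-head) genes were expressed in 17 of 46 cases, with Foxm1, a factor of mitosis, first at 34.1 FPKM. Developmental families were mostly silent: 32 of 232 homeobox genes (13.8%), 2 of 17 T-box genes and 0 of 9 Pax genes were expressed. The SOX genes that were expressed were Sox4 (15.3 FPKM), Sox9 (8.86 FPKM) and Sox12 (2.1 FPKM), and Sox2 had no read.

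Hox genes give cells their position along the body axis and lie in 4 clusters. Of 39 genes 7 were expressed, and all 7 were in the HoxA cluster. Hoxa5 led with 26.8, 27.1 and 29.4 FPKM, ahead of Hoxa6 with 11.1, 11 and 10.9 FPKM and Hoxa7 with 7.35, 6.86 and 7.07 FPKM. Hoxa2, Hoxa10 and Hoxa3 followed at means of 4.61, 4.05 and 2.55 FPKM. Between them on chromosome 6, Hoxa9 (29, 33 and 31 reads, mean 0.299 FPKM) and Hoxa4 (mean 0.448 FPKM) stayed under 1 FPKM. No gene of the HoxB, HoxC or HoxD clusters was expressed, and 20 Hox genes had no read. Hox genes of a cluster overlap in part, and no source used here states whether counting used strand.

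Families of sensory and immune receptors were examined as candidates for silence. Olfactory receptor genes counted 1405, of which 1363 had no read and none was expressed. Of 569 vomeronasal receptor genes 538 had no read, as had 379 of 380 immunoglobulin segments and 252 of 254 T cell receptor segments. Over all such families, 2699 of 2788 genes had no read and 0 were expressed. These are chosen families of known restriction, so their silence is a check on background reads rather than a finding. The 1405 olfactory receptor genes drew 411 reads in all 3 libraries together.

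Along the chromosomes, 62 runs of at least 15 neighbouring protein-coding genes had no read in any library. Olfactory or vomeronasal receptor genes were the commonest genes of 31 of them. The longest held 234 genes on chromosome 2 (85330779 to 90403897), of which 227 were olfactory receptor genes. Chromosome X had 282 of 948 protein-coding genes expressed (29.7%) and chromosome 7 had 722 of 2022 (35.7%), against 45.2% in all. On chromosome Y 1 of 183 was expressed, the predicted gene Gm47283. Xist, the RNA of the inactive X chromosome, had 11, 3 and 3 reads. The imprinted H19 had no read, while the nuclear RNA Malat1 had 237, 193 and 179 FPKM, highest in replicate 1.

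Promoter sequence was set beside level for the 16493 of 22017 protein-coding symbols with a RefSeq promoter (GRCm38.p6, 300 bases, the most upstream start of a gene). The median number of CG per 100 bases was 1 for genes with no read, 2.67 for genes with reads but under 1 FPKM, 7 at 1 to under 10 FPKM, 7.67 at 10 to under 100 FPKM and 7.33 at 100 FPKM and over. Thus CG was more frequent before expressed genes, with little change above 1 FPKM. The letters TATAAA, on either strand, were in 24.1% of promoters of genes with no read, in 5.89% and 5.91% of the middle classes and in 13.2% at 100 FPKM and over, against 12.8% of all. The letters GGGCGG, on either strand, were in 20.2%, 39.8%, 66.4%, 71.5% and 67.5% of promoters from the lowest class to the highest, and CCGGAAG in 2.42%, 6.93%, 20%, 21.1% and 21.8%. CCAAT was in 37.1% to 40.0% of promoters in every class. Classes differ in base composition, which sets how often such letters arise, and a match is not a binding site.

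Replicate spread was small for genes with many reads. The biological coefficient of variation, edgeR's estimate of spread beyond counting error, was 4.78% over 13018 genes. CPM are reads scaled to adjusted library size and not to gene length. The observed coefficient of variation of a gene had a median of 5.07% at 10 to under 100 CPM. Counting error, computed from the mean count, was 4.09% there. At 100 to under 1000 CPM the figures were 3.18% and 1.91%, and at 1000 CPM and over 3.03% and 0.616%. The observed figure is a median over SDs of 3 libraries, which tends to lie below the true SD. The gap to counting error is therefore understated. Counting error falls as reads rise, so the ratio of spread to that error must grow with level. The observed spread itself was smallest in the highest genes. The libraries were not copies of 1 another, since squared differences between pairs averaged 2.73 to 4.77 times counting error.

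A few genes departed from that. Of 9425 genes with at least 10 CPM, 40 had a coefficient of variation over 20%. Gapdh, a glycolytic enzyme often used as a reference gene, had 3456, 4758 and 368 reads, or 45.4, 60.9 and 4.82 FPKM. Its mean was 37.1 FPKM in all and 53.2 FPKM without replicate 3. Replicate 3 thus stood apart for Gapdh, while Pgk1 and Aldoa of the same pathway varied little (Pgk1 1011, 1071 and 1108 FPKM, Aldoa 534, 579.9 and 597 FPKM). The 6 other genes whose name or description matched Gapdh had 38, 29 and 41 reads in all. Copies under other names were not looked for.

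Sumo2, a small protein modifier, had 1700, 1607 and 280 reads, again low in replicate 3. The 4 genes matched to it in the same way had 15, 8 and 14 reads. In the other direction, mt-Atp6 had 33.1, 36.9 and 72.7 CPM and the predicted gene Gm10241 6.94, 15.5 and 54.1 CPM, both highest in replicate 3. Dynlt1c, Gm10076 and Sarnp were also among the 20 genes of largest estimated dispersion. Rpl7a, a ribosomal protein gene that is not among those 20, had 75.9, 108 and 135 FPKM. By contrast, Axl stood at 290.1 ± 3.2, Krt18 at 590.5 ± 23.8 and Vim at 667 ± 29.4 FPKM (SD, n = 3). The cause of the departures was not tested.

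**Figure D4:**
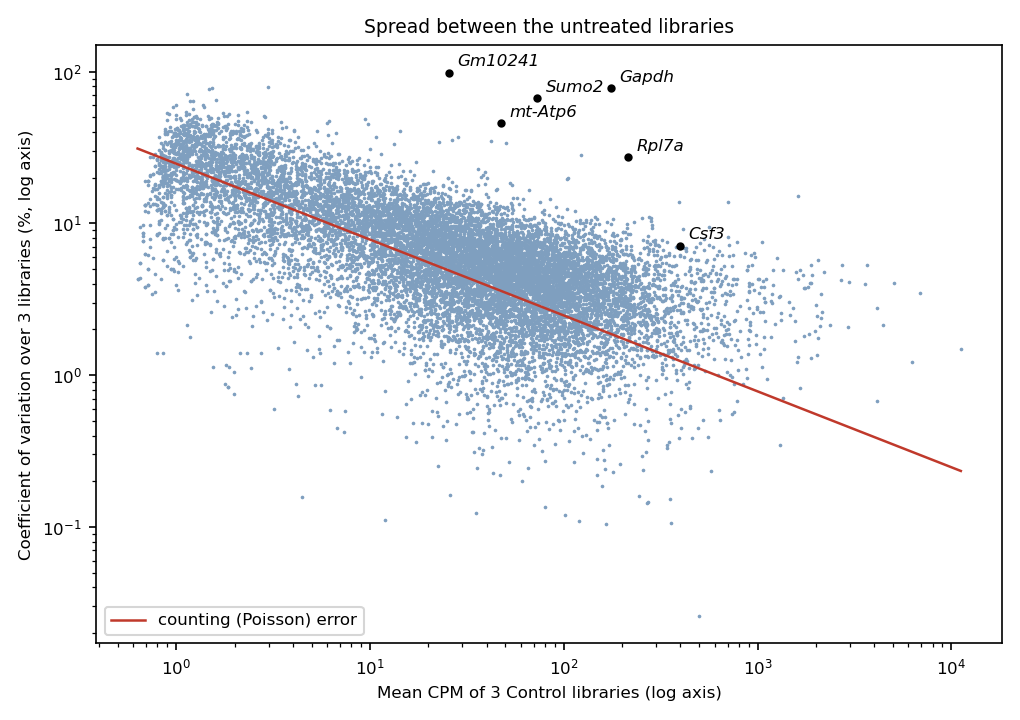
Coefficient of variation over the 3 Control libraries (%, log axis) against mean CPM (log axis) for the 13018 genes fitted; the red line is counting error alone. Most genes lie around or above the line, and Gapdh, Sumo2, Gm10241, mt-Atp6 and Rpl7a lie far above it. Csf3 is marked for reference and also lies above the line.

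Gene length was linked to a small drift between libraries. From replicate 1 to replicate 3, the median log2 difference was 0.08 for 530 expressed genes of up to 1000 bases and -0.06 for 1783 genes over 8000 bases. From replicate 1 to 2 it was 0.04 and -0.04. Such a drift is far below the differences between genes given above.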

How the data were processed

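RNA of untreated 4T1 cells was analysed in the 3 libraries labelled Control, grouped and numbered by their titles. The submitters' processing notes name mm10, Bowtie 0.12.9, Cufflinks 2.1.1 and HTSeq, without roles. The authors deposited read counts per gene, not normalized, per the file headers. They also deposited FPKM, per the file headers, equal to count over length over library total, multiplied by 0.875, 0.881 or 0.889. No source used here states a reason for that factor. The FPKM of a library sum to 277817 to 288202, so 1 FPKM is about 3.5 TPM. The members and lists were chosen with earlier results of these data known. No test between groups was made.

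Expressed means FPKM of at least 1 in each library. CPM used TMM factors. Spread was estimated with edgeR 4.0.16 (R 4.3.3) in 1 group after filterByExpr, and tested on simulated data; DESeq2 1.42.0 was an alternative. Named genes are the 30 highest by mean FPKM of at least 300 bases that are not predicted, clone, pseudogene, mitochondrial or ribosomal protein genes, members of the lists, and the 20 of largest dispersion at 10 CPM or more. Of list symbols, 3 could not be matched. Families follow symbol patterns or the table's own transcription factor column. Motifs were searched on both strands. Some list members are not reported here.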

Additional observations from a re-analysis of the deposited data

How the results depend on the processing

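The count of expressed genes stayed within 1.5 times of 11249 under each alternative run (FPKM of at least 0.5 or 2, TPM or CPM of at least 1, protein-coding genes alone, each replicate left out). The 30515 genes with 0 counts became 6994 among protein-coding genes alone and 35453 with up to 3 counts summed. The 100 most counted genes took 17.6% of reads without mitochondrial genes, and the 100 of highest FPKM took 31.2% of summed FPKM. The biological coefficient of variation of 4.78% was 4.8% with library totals alone, 4.84% without a filter, 4.77% with at least 1 CPM in each library, and 7.46% by DESeq2's dispersion trend at the median level, and 3.68% to 5.97% with each replicate left out, lowest without replicate 3. The median coefficient of variation of expressed genes was 5.08%, 5.07% with RLE factors, 5.10% from deposited FPKM and 3.86% to 4.83% with each replicate left out. Of 78 lists and families, counts of expressed members moved by more than 1.5 times in 6 at FPKM of at least 0.5, in 10 at TPM of at least 1 and in 2 without replicate 2, among them basal keratins (1 to 2 or 3) and Wnt, Notch and Hedgehog ligands (5 to 8 or 10). The mean level of Gapdh went from 37.1 to 53.2 FPKM without replicate 3. No paired analysis was possible because 1 group alone is described, so there is no comparison to pair.

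Levels near 1 FPKM, such as Foxa1, Esr1 and Cd274, change side with the threshold. Zero reads limit the RNA only down to 3 reads over the group. Genes with near-identical copies, and overlapping genes, cannot be separated here. RNA does not give protein.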

Other observations

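Secreted and matrix genes outside the main lists were also uneven. Of 18 S100 genes 9 were expressed: S100a6, S100a11 and S100a10 (365 FPKM) were far above S100a1 (34 FPKM), S100a16 (30 FPKM) and S100a4 (27 FPKM). Of 57 Serpina and Serpinb genes 4 were expressed, led by Serpinb6a at 67.5 FPKM, and 41 had no read. Serpinb5, the gene of maspin, had a mean of 3.79 FPKM.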
